A study of Equus caballus with 13 samples.

Results

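N6-methyladenosine (m6A) is a methyl mark that cells place on adenosines of messenger RNA, and the 10 genes described here encode proteins that write, read or erase it. They were chosen by name: the writers METTL3, METTL14, WTAP and VIRMA, the readers YTHDF1, YTHDF2, YTHDF3 and YTHDC1, and the erasers ALKBH5 and FTO. Of the 10, 9 had a row under their symbol in both tables of RNA kinetics, which together held 11331 genes. WTAP had no row under its symbol and was not analysed here. The cells were chondrocytes, the cells of cartilage, from horses (Equus caballus) labelled WT: 5 old female, 5 young female and 3 young male samples. All were cultured for 2 days and then given 4-thiouridine (4sU), a uridine analogue that marks newly made RNA, for 4 h. One table set old against young female cells and the other set young male against young female cells, and the same 5 young female samples entered both.

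The mark is placed in the nucleus by a complex in which METTL3 carries the catalytic site, METTL14 helps hold the RNA, and WTAP and VIRMA act as adaptor and scaffold. Reader proteins with a YTH domain bind the mark. YTHDC1 does so in the nucleus, where it acts in splicing and export, and the YTHDF proteins do so in the cytoplasm, where YTHDF2 brings marked RNA to the CCR4-NOT deadenylase and so to decay. ALKBH5 and FTO are dioxygenases that remove the mark. RNA stability is thus among the things the mark acts on. The labelling gave half-lives and synthesis rates of messages, including those of these genes, and did not measure the mark. METTL3 and FTO have been studied in chondrocytes for their part in osteoarthritis.

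For every group the authors estimated how fast each gene's RNA was made (the synthesis rate) and how long it lasted (the half-life). Each is 1 value per gene and group, so no value below has a replicate error, and no difference could be set against the variation between animals by a test. The samples are bulk cultures, in which fewer cells of a type and less RNA per cell cannot be told apart. Half-lives are read as hours, which is an assumption because their unit is not given. Synthesis rates are in arbitrary units whose relation to gene length is not given, so they are compared between groups and not between genes. The implied level is the synthesis rate times the half-life divided by ln 2, and its log2 ratio between groups is the sum of the log2 ratios of the other 2 quantities. The 13 samples carried 12 batch labels, of which batch 10 alone was shared by 2 groups, so batch and group cannot be told apart.

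The young female cells were estimated in both tables, which shows how far a value moves with the estimation alone. The half-lives of the 9 genes differed by at most 1.26% between tables (YTHDC1). Their synthesis rates were 4.17% to 6.08% apart, all lower in the sex table, against a median ratio of 0.956 over the genes in both tables. This repeat uses the same reads and holds none of the variation between animals.

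The labelled cell type was checked on 9 chondrocyte markers, all of which had rows in both tables. Their implied levels summed to 1799264 for young and 1635239 for old female cells in the age table, and to 1717834 for female and 4257232 for male cells in the sex table. The sums add genes in arbitrary units whose relation to gene length is not given, and their largest terms went both ways with age. COMP had 356826 in young and 632950 in old cells, whereas ACAN had 664956 and 475735, and COL2A1 478566 and 308599. In male cells 8 of the 9 had a higher implied level (median log2 ratio 1.48), and in old cells 6 of the 9 had a lower one (median −0.48). Of all genes, 49.5% had a lower implied level in male cells and 49.3% in old cells. Fibroblast and dedifferentiation markers had higher implied levels in male cells for 6 of 6 (median 1.82), with summed levels of 190838 and 456924, and lower ones in old cells for 5 of 5 (median −1.12), with 199796 and 99960. In male cells the half-lives of COMP, MATN3, CNMD, COL1A2 and POSTN were 69.3 h, the longest value given. This is beyond the 24 h taken as resolved by the labelling. Of the markers of other cells, 1 of 6 for leukocytes (CD14), 1 of 5 for endothelium (VWF), 1 of 4 for bone cells (IBSP) and 1 of 3 for synovial lining (HBEGF) had a row. IBSP had a level log2 ratio of 2.19 in male and 0.77 in old cells, and HBEGF one of −0.96 and −0.82. CD14 had 0.15 in male and 0.26 in old cells, and VWF had 0.04 and 0.26. The part of these markers in the differences given below was not tested.

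Most messages of the m6A machinery were short-lived. By the age table's values for young female cells, 8 of the 9 had half-lives below the median of all genes (3.64 h, quartiles 1.78 and 8.67 h), and 5 lay below the lower quartile. All of these 8 were under 2 h, a range that held 29.0% of all genes. In old cells the 8 were again under 2 h (31.5% of all genes). In the sex table, the count under 2 h was 7 of 9 for young female cells (27.8%) and 6 of 9 for young male cells (24.1%). FTO was the exception, with a half-life of 7.51 h in young female cells.

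**Figure D1:**
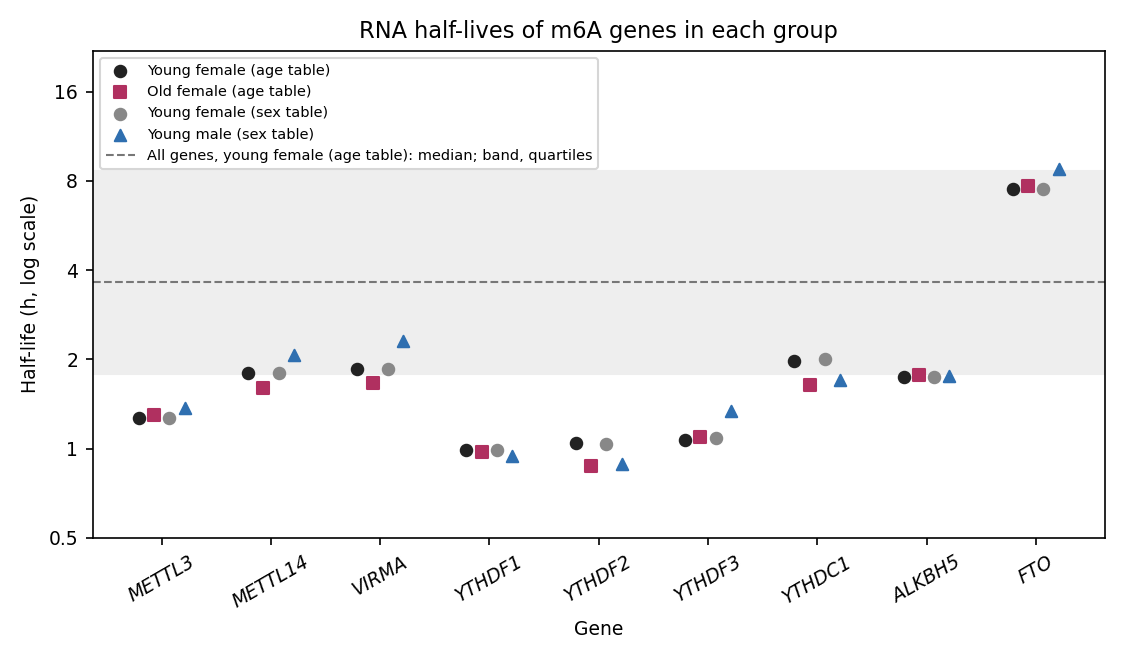
Half-lives (h, log axis) of the 9 genes in the 4 group columns of the 2 tables; each point is the authors' group value, the dashed line is the median of all genes in young female cells of the age table (3.64 h) and the band their quartiles. FTO sits near 8 h in every group, the other 8 genes between 0.871 and 2.30 h.

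Of METTL3, METTL14 and VIRMA, the catalytic subunit METTL3 had the shortest half-life. It was 1.27 h in young female cells and 1.30 h in old cells by the age table, and 1.26 h in young female cells and 1.37 h in male cells by the sex table. These values lay at percentiles 11.2 to 16.3 of all genes. Its values were close to one another in the female groups and slightly longer in male cells. METTL14, which pairs with METTL3, had half-lives of 1.80 h in young female, 1.60 h in old and 2.07 h in male cells. VIRMA, a large scaffold subunit, had half-lives of 1.85 h in young female, 1.66 h in old and 2.30 h in male cells. Both were shortest in old and longest in male cells, which is also the order of the medians of all genes (3.43 h in old and 4.63 h in male cells).

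The cytoplasmic readers had the shortest half-lives of the 9 genes in young female cells. YTHDF1 had a half-life of 0.988 h in young female and 0.972 h in old cells, and 0.990 h in young female and 0.945 h in male cells by the sex table. YTHDF2 had 1.04 h in young female and 0.871 h in old cells, and 1.03 h and 0.887 h in the sex table. YTHDF3 had 1.07 h and 1.09 h in the age table, and 1.08 h and 1.34 h in the sex table. In young female cells these paralogs followed one another at steps of 3.10% and 5.26% in the age table and of 4.47% and 4.57% in the sex table. Those steps are small, and with no spread between animals their order is not established. In male cells YTHDF3 stood 41.3% above YTHDF1. Whether reads shared by these related sequences were split between the genes is not given in the sources used here.

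At half-lives near 1 h, almost all of a message is replaced within the labelling time. For a constant level, 93.9% of YTHDF1, 93.0% of YTHDF2 and 92.5% of YTHDF3 RNA would have been made during the 4 h in young female cells of the age table. The corresponding share was 88.8% for METTL3, 79.5% for ALKBH5 and 30.9% for FTO. YTHDF1 in all groups and YTHDF2 in old and male cells lay under 1 h, outside the range of 1 to 24 h taken as resolved by 4 h of labelling.

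YTHDC1, the nuclear reader, had a half-life of 1.98 h in young female and 1.64 h in old cells, and 2.01 h and 1.70 h in young female and male cells by the sex table. It was thus shorter in both other groups than in young female cells, as were YTHDF2 and, by smaller amounts, YTHDF1. Both comparisons rest on the same young female samples, so the 2 differences of a gene are not independent. The erasers differed from each other. ALKBH5 had half-lives of 1.75 h in young female, 1.77 h in old and 1.76 h in male cells, the narrowest spread over groups among the 9 genes. FTO had 7.51 h in young female, 7.72 h in old and 8.76 h in male cells, at percentiles 67.5 to 73.9 of all genes, and by the sex table it was 274% longer than the next gene in young female cells.

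The age comparison asked whether the kinetics of these messages differ between old and young female cells. None of the 9 m6A genes differed by a log2 ratio of 1 (2-fold) or more: 0 of 9 did so for half-life, against 3.53% of all genes. For synthesis rate it was 0 of 9 against 7.52%, and for implied level 0 of 9 against 4.12%. With shares this low among all genes, 0 of 9 does not set the m6A genes apart. No log2 ratio of any of the 9 reached 0.5 in either direction, a size that 13.4% of all genes reached in half-life, 23.0% in synthesis rate and 15.6% in implied level.

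The readers YTHDC1 and YTHDF2 had the largest differences in half-life between old and young female cells. The half-life of YTHDC1 was lower in old cells by a log2 ratio of −0.28, and that of YTHDF2 by −0.26, where the median of all genes was −0.08. Both lay near the lower quartile of all genes, at percentile 23.8 for YTHDC1 and 25.7 for YTHDF2. The YTHDF2 half-life in old cells, 0.871 h, is under the 1 h taken as the lower end of the range resolved by the labelling. The synthesis rates of YTHDC1 and YTHDF2 were higher in old cells. For YTHDF2 they were 2786 in young female and 3478 in old cells (log2 ratio 0.32), and for YTHDC1 1102 and 1350 (0.29). The 2 differences had opposite signs, and the implied levels had log2 ratios of 0.06 for YTHDF2 and 0.02 for YTHDC1. Between the 2 estimates of the same young female reads, YTHDC1 also moved in opposite directions, by 0.019 in each quantity after the common offset. With 1 value per group, a difference between the cells and an error in the estimated half-life cannot be told apart here.

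The level ratios of the writers with age held both the highest and the lowest of the 9 genes. METTL3 had synthesis rates of 487 in young female and 522 in old cells, with a log2 ratio of implied level of 0.14, the highest among the 9. METTL14 had 428 and 503, and its shorter half-life (−0.17) left a level ratio of 0.07. VIRMA had 1476 and 1390, and with a half-life ratio of −0.16 its level ratio was −0.24, the lowest of the 9 and at percentile 20.0 of all genes. The 3 subunits thus did not share a direction.

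Level ratios of the remaining readers and the erasers in old cells lay between −0.09 and 0.01. YTHDF1 had synthesis rates of 2102 in young female and 2145 in old cells. YTHDF3 had 2529 and 2418, ALKBH5 had 4479 and 4157, and FTO had 639 and 612. Over the 9 genes the medians of the log2 ratios were −0.02 (half-life), 0.03 (synthesis rate) and 0.01 (implied level), beside −0.08, 0.08 and 0.00 for all genes. Half-lives were shorter for 5 of the 9, a direction taken by 63.1% of all genes. Synthesis rates were lower for 4 of 9 (39.8% of all genes) and implied levels for 4 of 9 (49.3%).

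**Figure D2:**
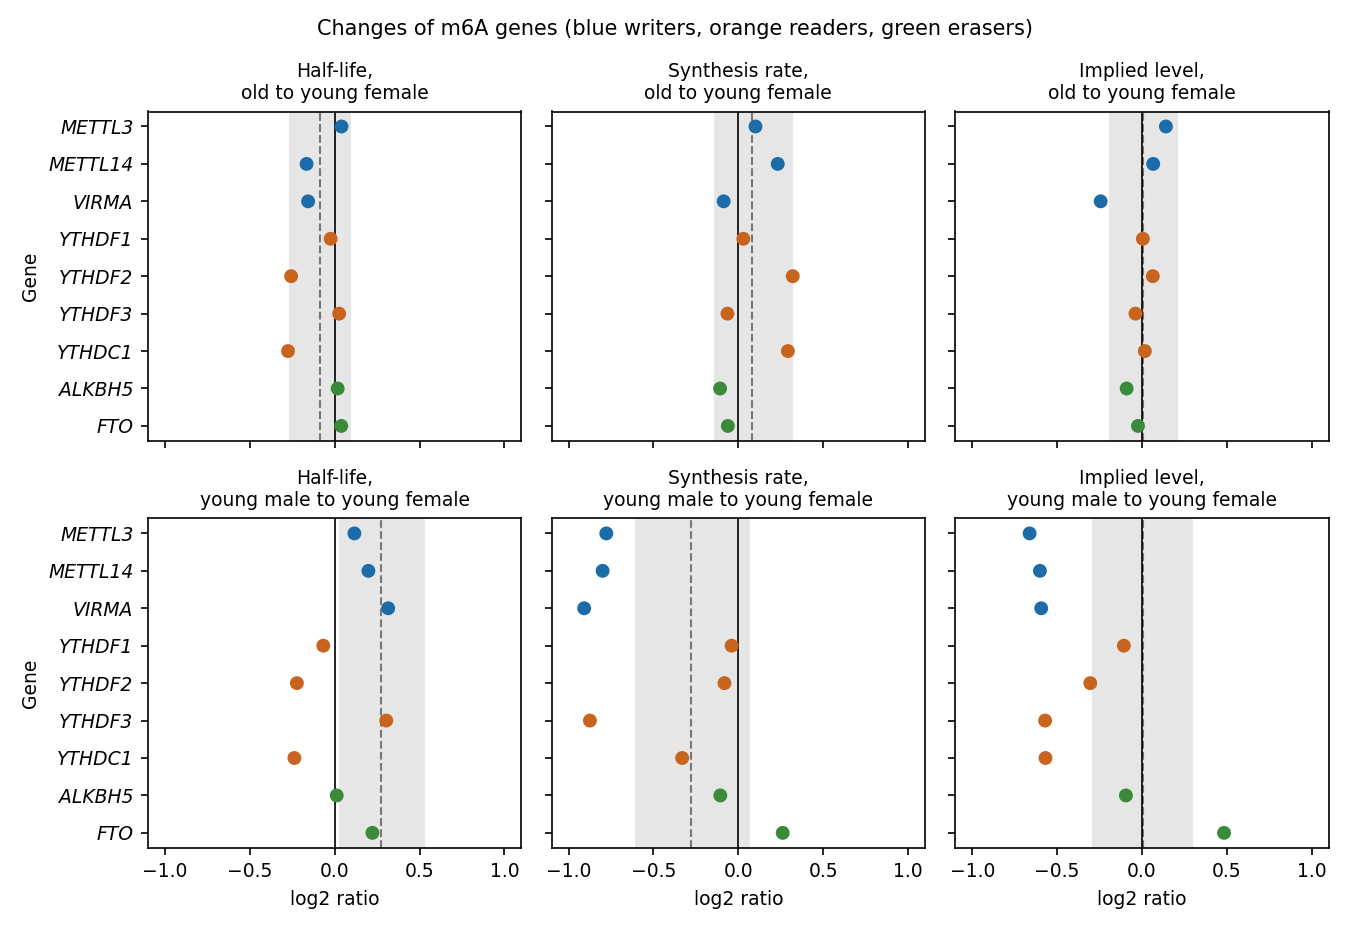
Log2 ratios of half-life, synthesis rate and implied level of the 9 genes for old to young female (top) and young male to young female (bottom); the dashed line is the median of all genes in the table, the band their quartiles and the solid line 0. In the top row no point reaches 0.5 in either direction, while in the bottom row METTL3, METTL14, VIRMA and YTHDF3 lie between −0.91 and −0.78 for synthesis rate.

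The sex comparison asked the same of young male against young female cells. METTL3, METTL14, VIRMA and YTHDF3 had lower synthesis rates in male cells, with log2 ratios between −0.91 and −0.78, while FTO had a higher one. None of the 9 passed a log2 ratio of 1 in either direction, a size reached in half-life by 7.58% of all genes, in synthesis rate by 12.2% and in implied level by 4.61%. For half-life none of the 9 reached 0.5, against 31.8% of all genes. Relative to the median of all genes, however, YTHDC1 had a half-life ratio of −0.511 and YTHDF2 one of −0.496. Over all genes the half-life had a median log2 ratio of 0.27, the synthesis rate one of −0.28 and the implied level one of 0.01.

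METTL3 had a synthesis rate of 466 in young female and 272 in male cells, a log2 ratio of −0.78 (1.71-fold lower). METTL14 had 409 and 235 (−0.80, 1.74-fold lower), and VIRMA had 1411 and 752 (−0.91, 1.88-fold lower). The 3 writer genes lay at percentiles 10.6 to 15.5 of all genes for synthesis rate. Their half-lives were somewhat longer in male cells, with log2 ratios of 0.12, 0.20 and 0.31, which for METTL3 and METTL14 is less than the median of all genes. Implied levels were therefore lower, by −0.66 for METTL3, −0.60 for METTL14 and −0.59 for VIRMA, at percentiles 6.37 to 8.48.

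The YTHDF paralogs, close in half-life in young female cells, diverged in male cells. YTHDF3 had a synthesis rate of 2393 in young female and 1305 in male cells (log2 ratio −0.87), and a level ratio of −0.57. YTHDF1 had 2002 and 1948 (−0.04), and YTHDF2 had 2674 and 2527 (−0.08). Relative to the median of all genes, YTHDF1 and YTHDF2 were higher, by 0.24 and 0.20, and YTHDF3 lower, by −0.60. The half-life of YTHDF2 had a log2 ratio of −0.22 and that of YTHDF1 one of −0.07, when 21.9% of all genes had shorter half-lives in male cells, while YTHDF3 had 0.30. Implied levels of YTHDF1 and YTHDF2 had log2 ratios of −0.11 and −0.30. The difference between the paralogs was not tested.

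YTHDC1 had a lower level in male cells with a shorter half-life. Its synthesis rate was 1039 in young female and 826 in male cells (log2 ratio −0.33, close to the median of all genes), and its half-life was shorter (−0.24, percentile 9.44). Together these gave a level ratio of −0.57. The plot of half-life against synthesis rate shows YTHDC1 and YTHDF2 left of 0 and the writers well below it.

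**Figure D3:**
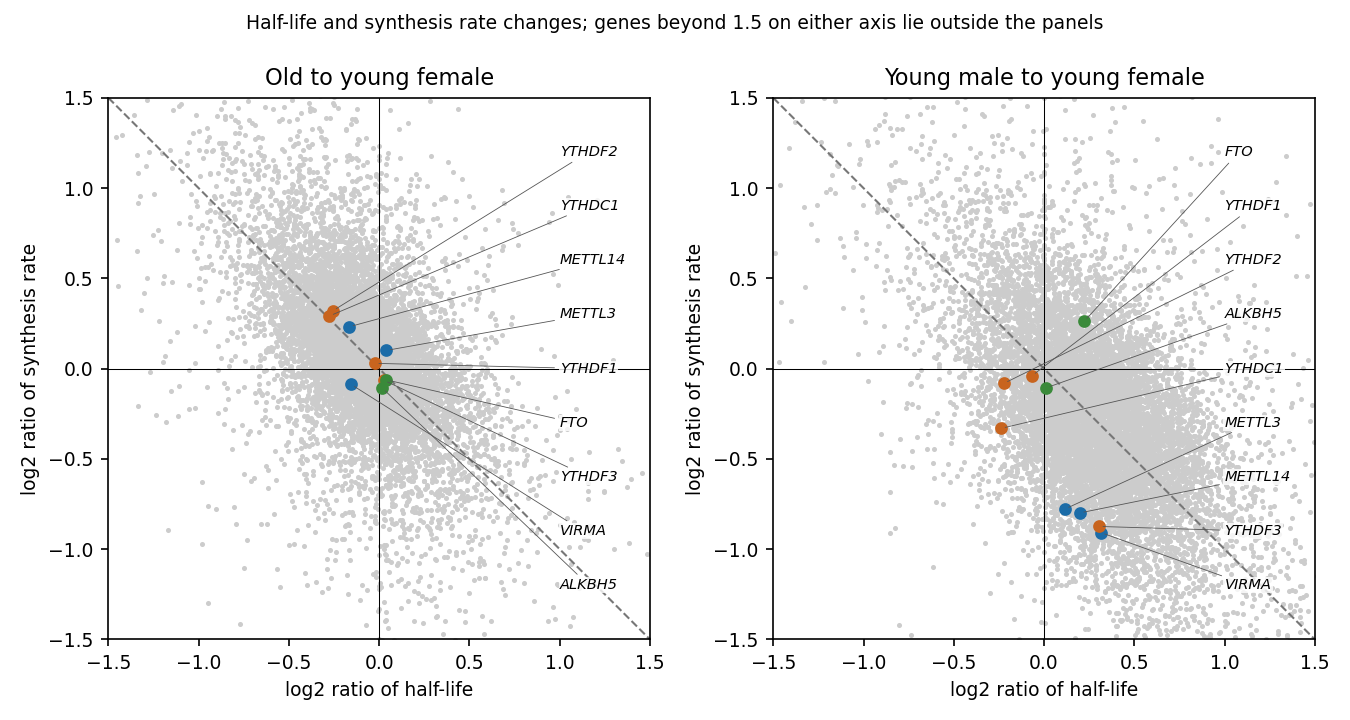
Log2 ratio of synthesis rate against log2 ratio of half-life for all genes of a table (grey) and the 9 m6A genes (blue writers, orange readers, green erasers), for age (left) and sex (right); along the dashed line the implied level is equal in both groups. In the age panel 4 of the 9 genes lie below that line, VIRMA (level ratio −0.24) farthest from it, and in the sex panel 8 of the 9 lie below it, from METTL3 (−0.66) to ALKBH5 (−0.09), and FTO lies above it.

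The erasers had level ratios of opposite sign in male cells. ALKBH5 had synthesis rates of 4284 in young female and 3980 in male cells (log2 ratio −0.11), a half-life ratio of 0.01 and a level ratio of −0.09. FTO had 611 and 732 (0.26), a half-life ratio of 0.22 and a level ratio of 0.48, which is 1.40-fold higher and at percentile 86.3. FTO was the only gene of the 9 with a higher synthesis rate or a higher implied level in male cells. In the RefSeq gene annotation of another horse assembly FTO overlaps 2 genes, RPGRIP1L and a long noncoding RNA gene that was not analysed here, and the other 9 genes overlap none. RPGRIP1L had a level ratio of −0.42 in male cells, and the part of reads from overlapping genes in the FTO values was not tested.

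The medians of the 9 log2 ratios in male cells were 0.12 (half-life), −0.33 (synthesis rate) and −0.57 (implied level). Synthesis rates were lower for 8 of 9, as they were for 71.1% of all genes, and 4 of 9 had a log2 ratio of −0.5 or less (32.1% of all genes), a share not far from that background. Half-lives were shorter for 3 of 9 (21.9% of all genes). Implied levels were lower for 8 of 9, against 49.5% of all genes, and 5 of 9 had a ratio of −0.5 or less, against 12.0%.

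Across deciles of all genes by half-life in old cells, the median level ratio in male cells ran from −0.35 for the shortest to 0.43 for the longest half-lives. Whether this bears on the m6A genes was not tested. Of the 3451 genes with a half-life under 2 h in old cells, a group that does not enter this ratio, 79.9% had a lower implied level in male cells and 27.1% had a log2 ratio of −0.5 or less. Their median was −0.29. The 8 m6A genes among them were all lower, 5 had −0.5 or less, and 6 lay below that median. This limit of 2 h was set after the half-lives of the m6A genes had been seen.

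Relative to the median of their own half-life decile, the level ratio was −0.35 for METTL3, −0.37 for METTL14, −0.36 for VIRMA, −0.34 for YTHDC1 and −0.26 for YTHDF3. It was 0.24 for YTHDF1, 0.05 for YTHDF2, 0.13 for ALKBH5 and 0.29 for FTO. On this scale 5 of the 9 genes were lower in male cells, and YTHDF1, YTHDF2 and ALKBH5 changed sign. For synthesis rate the same centring gave −0.38 for METTL3, −0.42 for METTL14, −0.53 for VIRMA and −0.48 for YTHDF3, and positive values for the other 5: 0.05 for YTHDC1, 0.24 for YTHDF2, 0.28 for YTHDF1, 0.28 for ALKBH5 and 0.44 for FTO.

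**Figure D4:**
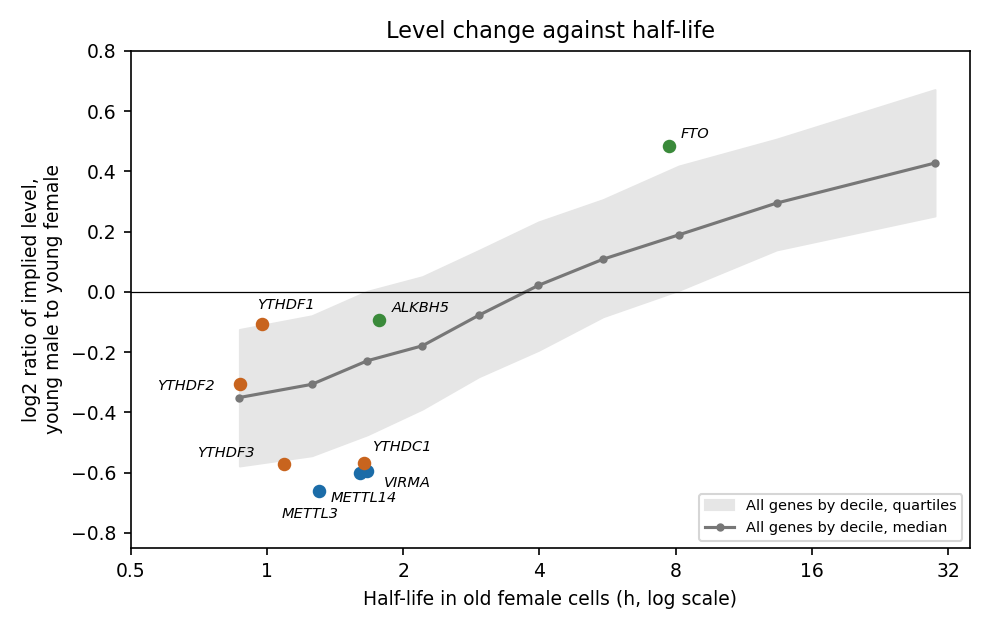
Log2 ratio of implied level, young male to young female, against the half-life in old female cells (h, log axis); the line and band are the median and quartiles of all genes in each of 10 half-life deciles, and points are the 9 m6A genes. METTL3, METTL14, VIRMA and YTHDC1 lie below the quartile band and YTHDF3 just below it, YTHDF2 and ALKBH5 lie within it, YTHDF1 just above its upper edge, and FTO above it.

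The old and male ratios share the young female values and are given side by side only. For METTL3 the level ratio was 0.14 in old and −0.66 in male cells, for METTL14 0.07 and −0.60, for VIRMA −0.24 and −0.59, and for YTHDF3 −0.04 and −0.57. For FTO it was −0.02 and 0.48. In absolute size the level ratios of 8 of 9 genes lay under the median absolute ratio of all genes in old cells (0.20), and 2 of 9 did so in male cells (0.29).

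The remaining subunits of the writer complex were ZC3H13 and CBLL1 (HAKAI), and the RNA-binding RBM15 and RBM15B, which guide the complex to its sites. All 4 had half-lives below the median of all genes in every group, from 0.878 h (CBLL1) to 2.19 h (ZC3H13) in young female cells of the age table. In male cells implied levels were lower for 4 of 4, with a median log2 ratio of −0.31 and none past 1, beside 49.5% of all genes and 79.9% of those under 2 h in old cells, a range that CBLL1, RBM15 and RBM15B share. ZC3H13 had a synthesis rate of 984 in young female and 553 in male cells (−0.83), a ratio within the range of METTL3, METTL14 and VIRMA. RBM15B was the only one with a higher synthesis rate in male cells (0.38).

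In old cells RBM15B was the only one of these 4 past 2-fold, a size reached by 3.53% of all genes for half-life and 7.52% for synthesis rate. Its half-life was 1.09 h in young female and 0.030 h in old cells (log2 ratio −5.17), and its synthesis rate was 2408 and 91473 (5.25). The implied level hardly differed (0.08). The old half-life is far below the 1 h taken as the lower end of the range resolved by the labelling. RBM15 had a half-life ratio of −0.54 and a synthesis ratio of 0.75 in old cells, with a level ratio of 0.21. Its half-lives behind this ratio, 0.996 and 0.686 h, are also under 1 h, and the young female value was 1.17 h in the sex table.

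Methyltransferases with other RNA targets or sites were METTL16, METTL5, ZCCHC4 and PCIF1, 4 of 5 listed. None passed 2-fold in either comparison. In male cells synthesis rates were lower for 4 of 4 (median −0.64), with METTL5, which acts on ribosomal RNA, the lowest at −0.89. Level ratios ran from −0.45 (METTL16) to −0.01 (ZCCHC4).

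Of 10 further proteins that bind m6A or m6A-dependent sites, 8 had rows. Their half-lives had a median of 5.07 h in young female cells of the age table. The shortest of them, 1.83 h, was that of YTHDC2, which has a YTH domain itself, and lay between those of YTHDF3 and YTHDC1. In male cells synthesis rates were lower for 8 of 8 (median −0.51) and 2 of them passed 2-fold, a size reached by 12.2% of all genes. YTHDC2 had 283 in young female and 138 in male cells (−1.03, and −0.76 relative to the median of all genes), with a level ratio of −0.84. IGF2BP2, which stabilises its targets, had 33.7 and 4.14 (−3.03), and a half-life of 11.4 h against 62.6 h. The male half-life is beyond the 24 h taken as resolved by the labelling, and the level ratio of IGF2BP2 was −0.57. In old cells IGF2BP2 was the only one of the 8 past 2-fold for synthesis rate (−1.34), beside 7.52% of all genes, and its level ratio was −0.89.

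The proteins through which YTHDF2 reaches the decay machinery were listed for 9 of 9: 7 subunits of CCR4-NOT, UPF1 and the adaptor RIDA. Implied levels were lower for 6 of 9 in male cells (median −0.20) and for 5 of 9 in old cells (median −0.03). CNOT1, the scaffold that YTHDF2 contacts, had level ratios of −0.43 in male and 0.20 in old cells. In male cells RIDA alone of the 9 passed 2-fold, for half-life and synthesis rate, beside 7.58% and 12.2% of all genes. Its male half-life was at the ceiling of 69.3 h against 25.9 h in young female cells, and its level ratio was 0.08.

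Genes that supply or clear S-adenosylmethionine, the methyl donor, had lower synthesis rates in male cells for 6 of 6 (median −0.58) and none past 2-fold. MAT2A, which makes the donor, had 1711 in young female and 922 in male cells (−0.89), with a level ratio of −0.58. In old cells the same gene had a synthesis ratio of 0.59 and a level ratio of 0.40, the highest among these 6 genes. The counts of lower synthesis rates in these 5 lists stand beside the 71.1% of all genes that were lower in male cells, and those of lower implied levels beside 49.5% in male and 49.3% in old cells.

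**Figure D5:**
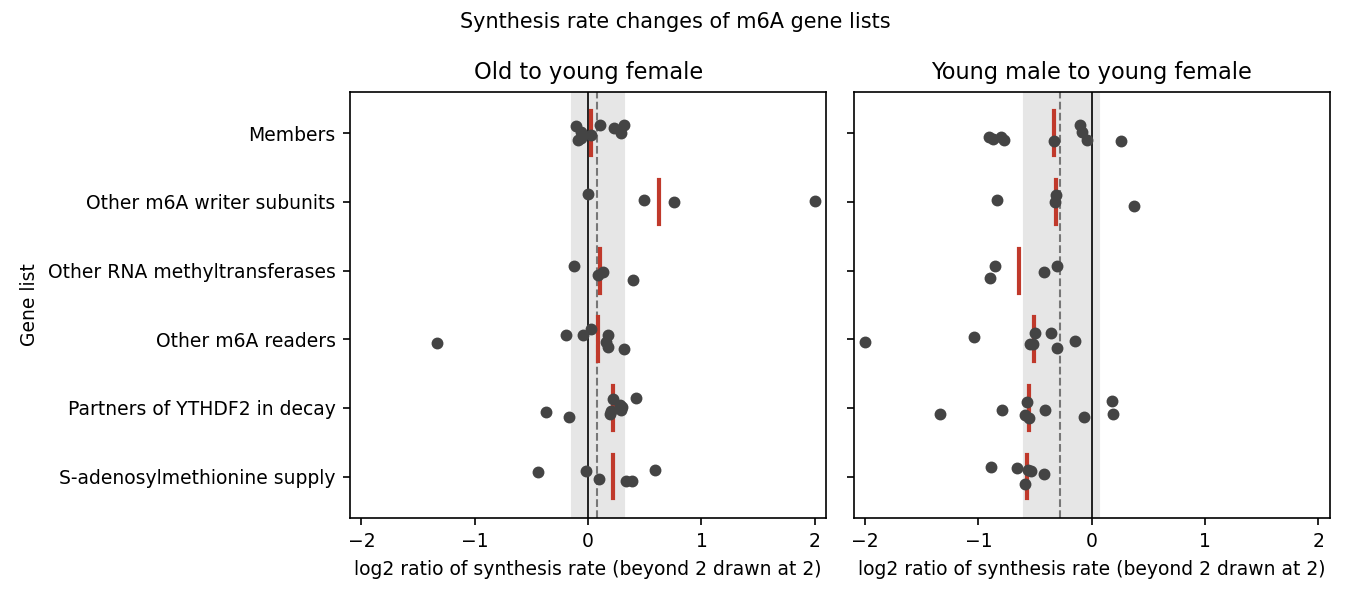
Log2 ratios of synthesis rate for the 9 m6A genes and 5 related gene lists (rows), old to young female (left) and young male to young female (right); each point is a gene, the red bar the list's median, the dashed line the median of all genes and the band their quartiles, with genes beyond 2 drawn at 2. In the right panel the medians of all 6 rows lie below 0 and at or left of the dashed line.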

How the data were processed

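RNA was sequenced from 13 horse chondrocyte cultures after 4 h of 4sU labelling; per the labels' protocols it was alkylated with iodoacetamide and made into strand-specific poly(A)-selected libraries. The authors deposited 2 tables (11056 genes for age, 11249 for sex) with 1 synthesis rate and 1 half-life per gene and group, per the file headers. The submitters' processing notes name cutadapt 4.5, STAR 2.5.3 and the build EquCab3.0; the kinetic model, gene filter and units are not given in the sources used here, and depth per sample is unknown. Half-lives were read as hours. Values stop at 69.3, which is ln 2 over 0.01, but this does not by itself set the unit, so hours remain an assumption.

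Log2 ratios were computed within a table (Python 3.11.15, pandas 2.3.3), without pseudocount or filter, tested on simulated data, and set beside all genes by median, percentile and the share past 1 or 0.5. With 1 value per group no test was run; the planned test on values per sample could not be used. All 10 members were to be named, and from 5 related lists the genes past 1 in any ratio of half-life or synthesis rate, or the most changed of their list; CNOT1, RBM15 and RPGRIP1L were named after their values were seen. Members, lists and alternatives were chosen with earlier results of these data known.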

Additional observations from a re-analysis of the deposited data

How the results depend on the processing

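No m6A gene passed a log2 ratio of 1 in any quantity of either comparison under any scaling or gene filter. With a threshold of 0.5 on the uncentred ratios, 4 genes passed for synthesis rate and 5 for implied level in male cells, and 0 for half-life or in old cells. Centred on the median of all genes, the half-life ratio of YTHDC1 in male cells was −0.511. Single ratios and medians are called moved here when they shift by more than 0.15, the 95th percentile of the shift in young female half-life between tables for genes of 1 to 24 h.

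In male cells, centring on the median of all genes gave a median half-life ratio of −0.16 with 7 of 9 shorter, and a median synthesis ratio of −0.052 with 5 of 9 lower. Centring within half-life deciles gave −0.054 for half-life (5 shorter), 0.050 for synthesis rate (4 lower) and −0.26 for implied level (5 lower). Relative to genes under 2 h, an alternative chosen after seeing the data, the median was 0.040 for synthesis rate (4 lower) and −0.28 for level. Keeping genes resolved in both groups (1 to 24 h) left 7 (without YTHDF1 and YTHDF2), which had a median synthesis ratio of −0.78 and 1 gene with a shorter half-life; in old cells 3 of the 7 were shorter. In old cells decile centring gave a median synthesis ratio of −0.12, and the young female values of the sex table left 2 genes lower for synthesis rate and 2 for level.

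Of 54 single ratios, centring on the median of all genes changed the sign of 9, decile centring of 14, reference to genes under 2 h of 12 and the other table of 4. Leaving out replicates was not run, since the tables hold no value per sample. No paired analysis was possible because each table holds 1 value per gene and group.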

Other observations

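The implied level was the steadiest of the 3 quantities when the same young female reads were estimated in both tables. After the common offset, the level of the 9 m6A genes differed by at most 0.000345 on the log2 scale, whereas half-life and synthesis rate each differed by up to 0.019 (YTHDC1), in opposite directions.

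METTL16, which acts on the MAT2A message, and MAT2A itself had level ratios of −0.45 and −0.58 in male cells and of −0.10 and 0.40 in old cells. AHCY, which clears the by-product of methylation, had level ratios of 0.24 in male and −0.33 in old cells.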
